A study of Mus musculus with 12 samples.

Results

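The comparison described here sets bone marrow-derived macrophages from Kif13b-deficient mice against those from wild type mice, both without apoptotic cells, across every gene with enough counts to test. It was chosen by the library labels alone and holds 6 of the 12 libraries of the series: 3 labelled WT and 3 labelled KO. The other 6 libraries are macrophages of both genotypes given apoptotic Jurkat cells, a human T cell line, and they appear below only where the resting difference is set against the difference seen there. The labels give 6-8 weeks as the time for every library, read here as the age of the mice, and the tibia as the source of the marrow. The series describes the deficient mice as Kif13b-/-, while the labels of their libraries call the genotype "Kif13b knock down", and neither says which part of the gene was altered or in which cells. The serum in the medium also differs in the labels: WT 1, 2 and 3 are given 10, 10 and 11% fetal bovine serum and KO 1, 2 and 3 are given 12, 13 and 14%. Whether these are true concentrations is not known, and as labelled, serum and genotype cannot be told apart. Nothing in the labels tells separate mice or cultures from repeats of 1 culture within a group, so every p-value below measures the spread between these libraries, which may be technical.

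KIF13B is a plus end-directed kinesin, a motor protein that carries membrane cargo along microtubules. Resting macrophages grown from marrow are professional phagocytes: they clear apoptotic cells through receptors such as MERTK, which binds phosphatidylserine by way of bridging proteins, and digest them in lysosomes, a process called efferocytosis. The title of the series names KIF13B and MERTK-mediated efferocytosis as its subject, and the resting libraries ask what the transcriptome looks like before any apoptotic cell is met.

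Levels are given as CPM, the reads of a gene relative to the TMM-scaled total of its library, in the order of replicates 1, 2 and 3. A difference is the log2 ratio of KO to WT with its standard error (SE), n = 3 libraries per group. A gene was called, and is said to have risen or fallen, where edgeR's quasi-likelihood test gave a Benjamini-Hochberg adjusted p under 0.05 over the 12640 genes tested. Totals lay between 18256622 and 18770757 counts per library. The macrophage markers were abundant in all 6 libraries: the summed level of 18 of them, Adgre1, Csf1r, Cd68 and Lyz2 included, was 51780 ± 5710 CPM in KO and 49510 ± 716 in WT (SD, n = 3 each; exact permutation test, two-sided, p = 0.7). Only Mrc1 and Itgam among the 18 passed the test, both lower in KO.

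The KO libraries did not stand together. Over 9181 genes at 5 CPM or more, KO 3 lay closer to WT 1, at a root mean square log2 distance of 0.179, than to KO 1 (0.300) or KO 2 (0.320). KO 1 and KO 2 lay 0.248 apart, and the WT libraries 0.153 to 0.244 from each other. The first principal component carried 69.7% of the variance and placed KO 3 between the other KO libraries and WT 1. KO 1 and KO 2 also differed from all other libraries in a way that followed gene length: in the shortest 8th of genes the median gene was higher than the WT mean by 0.404 in KO 1 and 0.354 in KO 2 on the log2 scale, and lower by 0.0149 in KO 3, while in the longest 8th the medians were -0.365, -0.278 and -0.0641. The calls follow the same line, with 284 genes higher and 38 lower in the shortest 8th and 26 higher and 312 lower in the longest. The mitochondrial genome took 1.11, 0.578 and 1.23% of counts in KO 1, 2 and 3 and 1.42, 2.05 and 2.52% in WT 1, 2 and 3, groups that did not overlap (exact permutation test, two-sided, p = 0.1, the smallest that 3 against 3 allows). The part of RNA quality or library preparation in the results was not tested. For many of the gene groups below, counts are also given from a fit with an offset for exonic length and GC content, from a fit without KO 3, or from a fit with KO 3 as the only KO library, which borrows its spread from WT and has little power.

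**Figure D1:**
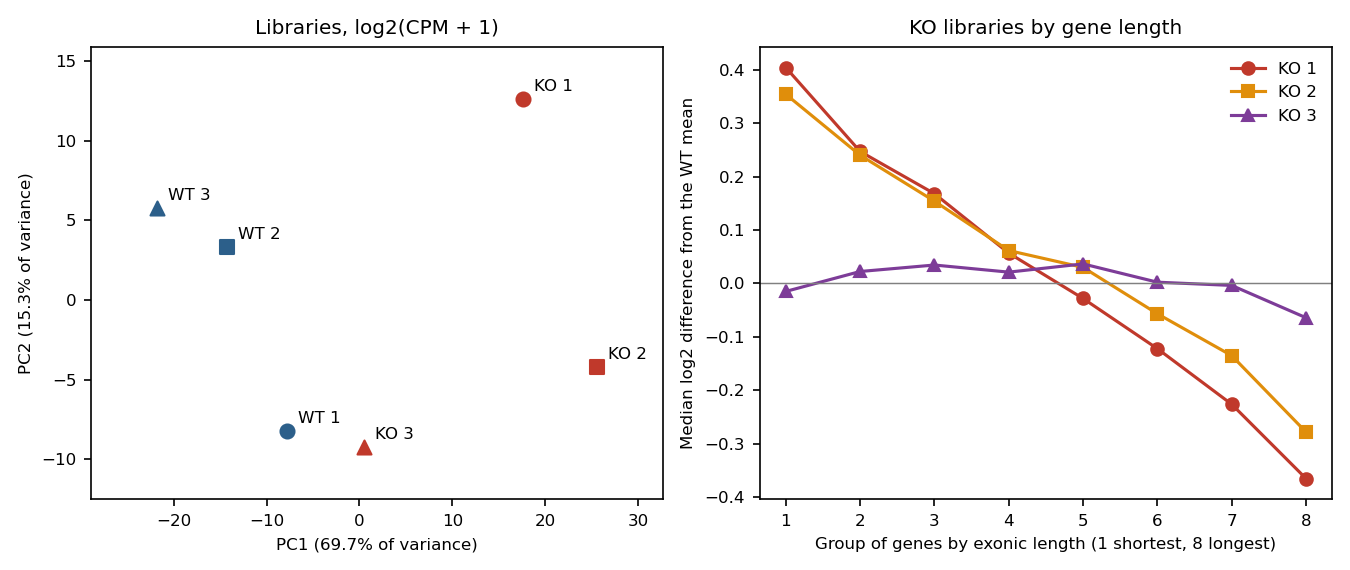
The left panel plots the 6 libraries on the first 2 principal components of log2(CPM + 1), with colour for genotype and marker shape for replicate number, and the right panel plots, for each KO library, the median log2 difference from the WT mean in 8 groups of genes ordered by exonic length. KO 3 lies beside WT 1, and its line stays between -0.0641 and 0.0366 while those of KO 1 and KO 2 fall from 0.404 and 0.354 to -0.365 and -0.278.

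Kif13b, the targeted gene (ENSMUSG00000060012, chromosome 14, 64647265 to 64809617, plus strand, GRCm38), was reduced but far from absent. Its reads numbered 281, 345 and 424 in KO 1, 2 and 3 and 599, 546 and 535 in WT 1, 2 and 3, or 16.4, 20.0 and 22.2 CPM against 30.8, 28.7 and 28.6. Every KO library lay below every WT library, and KO 3 was the nearest to them. The log2 difference was -0.59 (SE 0.14, adjusted p = 0.0087). It did not pass the test without KO 1 (-0.48, adjusted p = 0.0624) or with KO 3 alone (-0.41, adjusted p = 0.293). A transcript that has lost an exon still gives reads over the rest of the gene, so these counts bear on the labels only as far as the alteration lowers the RNA, and the files hold no exon counts. In the libraries labelled as given apoptotic cells the order was the other way: 1697, 1697 and 1721 reads in those labelled KO and 1600, 1561 and 1634 in those labelled WT, a log2 difference of 0.13 (SE 0.04, adjusted p = 0.0261). Directions drawn from either table rest on the labels. Of the genes within 10 Mb of Kif13b, 145 were tested and 23 were called, or 15.9%, next to 16.2% of all genes tested.

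Mertk, which encodes the receptor named in the title, did not differ beyond the spread: 50.03, 69.4 and 69.5 CPM in KO and 53.2, 62.4 and 70.2 in WT. The groups overlapped throughout, and the log2 difference was 0.02 (SE 0.14, 95% interval -0.25 to 0.30, adjusted p = 0.922), with its sign changing between alternatives. The other proteins described as partners or cargo of KIF13B gave 1 further call among 8 tested, Adap1, an ArfGAP also known as centaurin alpha 1, which rose by 0.47 (SE 0.15, adjusted p = 0.0333). With the length and GC offset Adap1 was at 0.19 and was not called (adjusted p = 0.24). Kif13a, the nearest relative of Kif13b, was at -0.18 (adjusted p = 0.384).

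**Figure D2:**
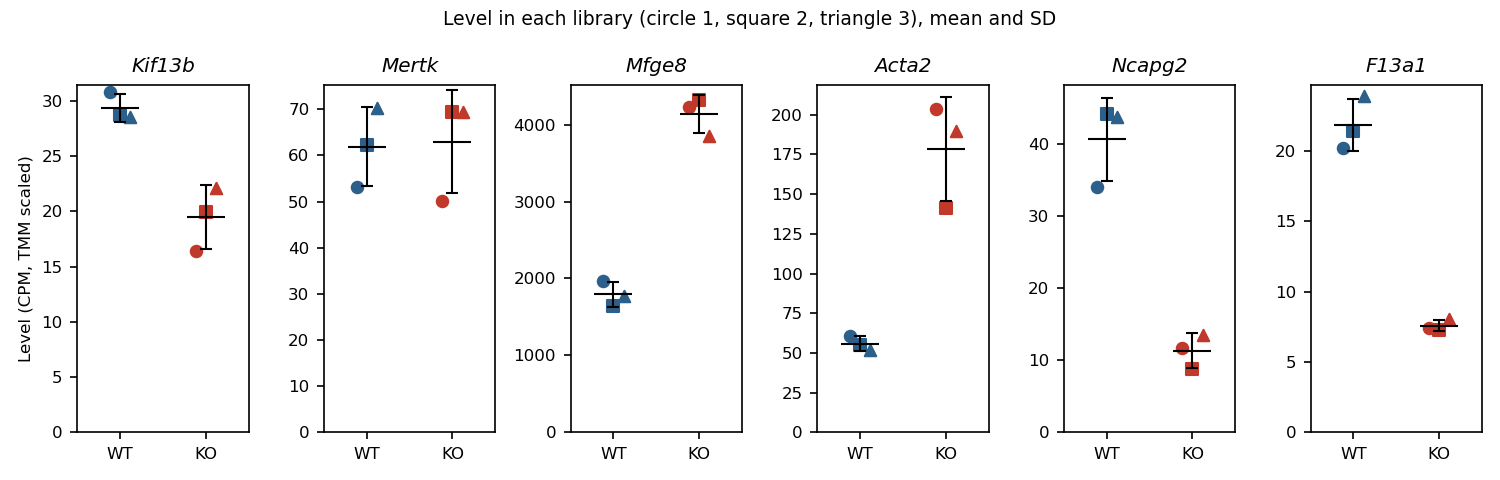
Each panel plots the level of 1 gene in CPM after TMM scaling in the 3 WT and the 3 KO libraries (circle, square and triangle for replicates 1, 2 and 3), with a line at the mean and bars of 1 SD. The groups do not overlap for Kif13b, Mfge8, Acta2, Ncapg2 and F13a1, and do for Mertk.

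Across all genes, 2045 of 12640 were called, or 16.2%: 1004 higher in KO (7.94%) and 1041 lower (8.24%). Groups did not overlap for 4245 genes (33.6%), and for 1824 of the genes called. The changes were mostly small, with a median size of 0.553 on the log2 scale among called genes, and 160 reached 2-fold, 106 of them higher and 54 lower. How many genes were called depended on single libraries: the number was 312 when KO 1 was left out, 698 for KO 2, 4166 for KO 3 (32.4%), 1001 for WT 2 and 370 for WT 3. With KO 3 as the only KO library it was 95, or 0.72% of the genes then tested. With the length and GC offset 877 were called (6.94%), 523 higher and 354 lower, and 564 of them were among the 2045, all in the same direction. A set of 67 genes, 50 higher and 17 lower, was called in the same direction in all 14 alternatives other than the 2-fold threshold; this set was drawn after the values were seen and is a description. On the high side it holds Acta2, Myl9, Col3a1, Cdkn1c and Mfge8, and on the low side Fpr1, Ncapg2, F13a1, Arg1 and Marco.

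**Figure D3:**
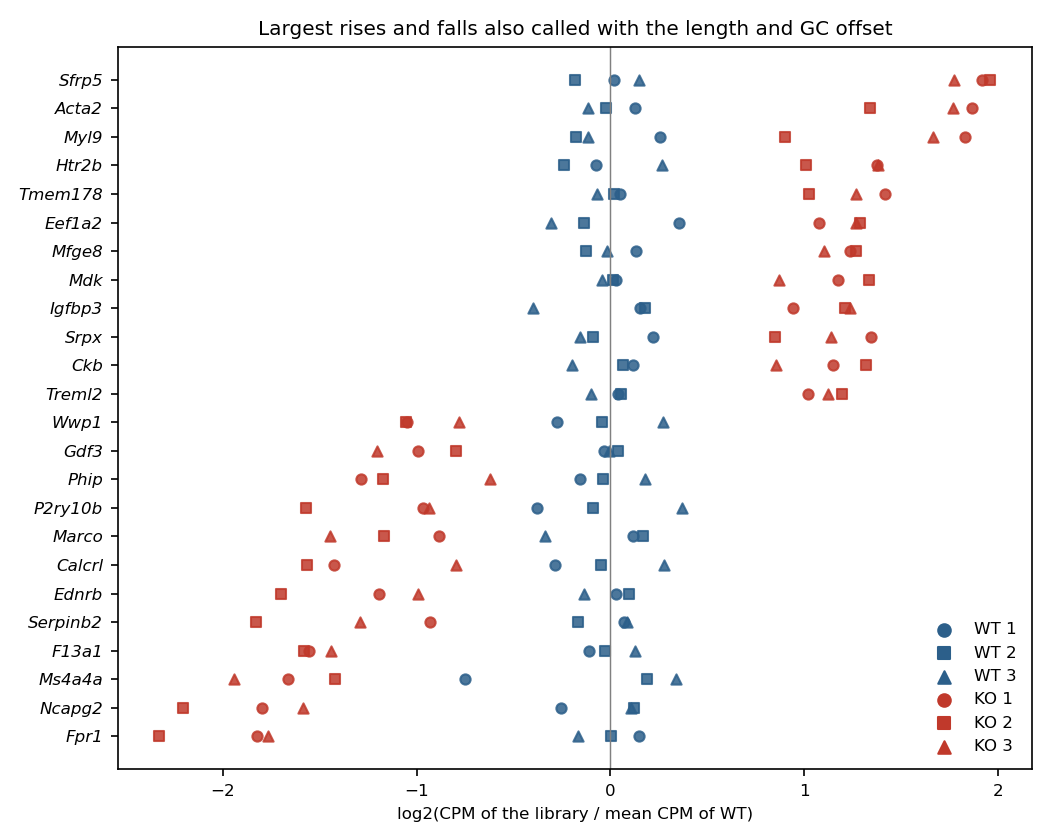
Points show, for the 12 largest rises and 12 largest falls by the naming rule, which leaves out predicted and mitochondrially encoded genes and asks for groups that do not overlap and a call with the length and GC offset, the log2 ratio of each library's CPM to the WT mean, with colour for genotype and marker shape for replicate number. The separation of KO from WT is part of that rule. The highest gene is Sfrp5, at 1.88, and the lowest Fpr1, at -1.95.

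Genes of the smooth muscle contractile apparatus were among the largest rises. Acta2, which encodes smooth muscle alpha actin, stood at 203.6, 141.4 and 190.0 CPM in KO and 60.9, 55.0 and 51.6 in WT. All 3 KO libraries were above 2 times any WT library, and the log2 difference was 1.68 (SE 0.14, adjusted p = 9.1e-08). Myl9, a regulatory light chain of smooth muscle myosin, stood at 15.4, 8.10 and 13.8 CPM in KO against 5.19, 3.84 and 4.01 in WT (1.52, SE 0.20, adjusted p = 6.5e-05). Tpm2, beta tropomyosin, stood at 51.3, 48.6 and 40.9 CPM against 24.8, 24.5 and 24.2 (0.94, SE 0.13, adjusted p = 7.3e-05). Actg2, enteric smooth muscle actin, was scarce in both groups, with 28, 22 and 39 reads in KO and 10, 3 and 5 in WT, and rose by 2.37 (SE 0.38, adjusted p = 0.000437). The median of the 14 smooth muscle genes tested was 0.46, where all genes tested had 0.0244. Of these 14, 7 rose and none fell, or 50% called, next to 16.2% of all genes. The other 3 were Tpm1 (0.42), the intermediate filament gene Des (0.54) and Csrp1 (0.51). With the offset 6 of the list were called as rises, and with KO 3 alone 5. Other members gave no call: Cald1 was at -0.02 and Tpm4 at -0.13, neither called. Myh11 and Tagln had between 0 and 4 reads in every library, too few to test.

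The smooth muscle promoter is known for the CArG box, the site bound by serum response factor, and the 250 bases before the start of 3 of the 4 genes above are shown because these genes moved together (RefSeq, GRCm38.p6, 5′ to 3′ on the gene's strand; Actg2 was not in the promoter table). Capitals mark CArG boxes and CArG-like boxes, those with 1 base of the A/T core replaced. The Acta2 sequence is chr19:34255374-34255623, minus strand, the Myl9 sequence chr2:156775214-156775463, plus strand, and the Tpm2 sequence chr4:43523555-43523804, minus strand.
Acta2: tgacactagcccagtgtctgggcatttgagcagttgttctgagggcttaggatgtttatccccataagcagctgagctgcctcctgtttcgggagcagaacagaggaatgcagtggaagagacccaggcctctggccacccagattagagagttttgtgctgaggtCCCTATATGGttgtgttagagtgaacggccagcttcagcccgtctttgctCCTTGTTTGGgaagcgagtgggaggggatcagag
Myl9: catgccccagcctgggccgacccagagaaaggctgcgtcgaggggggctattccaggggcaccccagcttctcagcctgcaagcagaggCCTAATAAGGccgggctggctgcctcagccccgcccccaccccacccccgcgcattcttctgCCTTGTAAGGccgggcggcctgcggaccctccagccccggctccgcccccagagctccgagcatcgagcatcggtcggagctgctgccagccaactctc
Tpm2: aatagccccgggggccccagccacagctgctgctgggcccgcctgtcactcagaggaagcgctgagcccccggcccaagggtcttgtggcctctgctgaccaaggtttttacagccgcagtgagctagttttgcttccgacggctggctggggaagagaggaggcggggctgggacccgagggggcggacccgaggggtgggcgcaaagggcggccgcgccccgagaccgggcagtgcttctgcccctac
Acta2 held 2 CArG-like boxes, starting 84 and 34 bases before the start, and no strict box. Myl9 held a strict box 161 bases and a CArG-like box 99 bases before the start, and Tpm2 held neither in this window. Both strands were searched, and the CArG-like form was added after the data had been seen. A strict box was found in 2 of the 13 tested genes of the list that have a promoter in the table, Myl9 and Cnn2, and in 1.31% of the 9551 tested genes with one, and a CArG-like box in 2 of 13 and in 8.24%. Cnn2 was not called (0.28, adjusted p = 0.110). A match describes the letters and shows no binding.

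Genes of fibroblasts and of extracellular matrix rose beside the muscle genes. Of 13 fibroblast and stromal markers tested, 7 rose and none fell, or 53.8% called, next to 16.2% of all genes. The median was 0.55, or 0.76 with KO 3 alone, and 6 rose with the offset. Without KO 3, 5 rose and 1 fell (median 0.31), where 32.4% of all genes were called. Col3a1, type III collagen, stood at 80.0, 78.8 and 109.3 CPM in KO and 50.7, 45.4 and 37.7 in WT (1.00, SE 0.14, adjusted p = 0.00013). Here KO 3 was the highest library, and the same held for Col1a1, Col1a2 and Cxcl12. Cxcl12, the stromal chemokine of the marrow, stood at 75.7, 74.4 and 86.2 CPM against 53.9, 51.5 and 44.2 (0.66, SE 0.13, adjusted p = 0.00234). Among the scarcer markers Lum rose by 1.18 and Thy1 by 1.14. The fibroblast markers Pdgfra (0.06) and Dcn (0.14), the first with 734 to 1107 reads and the second with 1750 to 2703 in every library, were not called (adjusted p = 0.774 and 0.48).

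Of 34 collagens and matrix glycoproteins tested, 15 rose and none fell, or 44.1% called, next to 16.2% of all genes. The median was 0.40, or 0.58 with KO 3 alone, and 12 rose with the offset. Without KO 3, 10 rose and 1 fell (median 0.23), where 32.4% of all genes were called. The list summed to 2466, 2520 and 2845 CPM in KO and 2579, 2274 and 2174 in WT, so the sums overlapped. Serpinh1, the collagen chaperone of the endoplasmic reticulum, stood at 281.1, 293.6 and 273.6 CPM in KO and 191.7, 165.5 and 141.8 in WT (0.77, SE 0.13, adjusted p = 0.000818). Fbln5, an elastic fibre protein, rose by 1.32 (SE 0.23), Loxl1, which cross-links elastin, by 0.83 (SE 0.16) and Mgp, an inhibitor of calcification, by 0.77 (SE 0.15). The basement membrane chains Col4a1 and Col4a2 rose by 0.61 and 0.67, and Tnc, a matrix protein of wounds and stroma, by 0.88. In the same direction, Ccn1 stood at 16.6, 15.2 and 15.4 CPM in KO and 7.81, 7.95 and 7.91 in WT, with no overlap. Ccn1 and its relative Ccn2, matricellular proteins and well known targets of YAP, rose by 0.99 and 0.84, and Amotl2, another such target, by 0.84; these 3 were named after their values were seen. Metalloproteinases did not move as a group: of 26 tested with their inhibitors, 2 rose and 4 fell, or 23.1% called, next to 16.2% of all genes. Mmp12, macrophage elastase, fell by 0.47 on the log2 scale (SE 0.15, adjusted p = 0.0377), and was at -0.09 with the offset (adjusted p = 0.62).

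Stromal cells can be carried along in marrow cultures, and the summed levels of the fibroblast and smooth muscle lists differed between the groups. The fibroblast markers summed to 758.9 to 964.1 CPM in KO and 551.5 to 672.2 in WT, and the smooth muscle genes to 1234 to 1398 and 1031 to 1076 (exact permutation test, two-sided, p = 0.1 for each, the smallest possible). Every KO library lay above every WT library on both sums. In bulk RNA, more cells of a type and more RNA per cell cannot be told apart, and the part of stromal cells in these results was not tested. Of the markers of other lineages, Ly6g, Hbb-bs, Gp9, Mcpt8 and Siglech had no reads in any library, and Cd3e, Lepr and Flt3 at most 1. Others were present: Pf4, a platelet chemokine, at 50.9 to 93.9 CPM over the 6 libraries, Ighm, an immunoglobulin heavy chain, at 3.26 to 14.6 CPM and Cpa3, a mast cell protease, at 28 to 68 reads. The neutrophil markers summed to 76.0 to 93.7 CPM in KO and 80.7 to 89.9 in WT (exact permutation test, p = 0.9), and Ltf, lactoferrin, rose by 1.89 (SE 0.31, adjusted p = 0.000646), from 10, 8 and 8 reads in WT to 30, 26 and 35 in KO. The dendritic cell markers summed to 156.9 to 196.1 CPM in KO and 128.9 to 152.3 in WT, with no overlap (exact permutation test, p = 0.1), and among them Batf3 rose by 0.65 and Irf4 fell by 0.65 on the log2 scale, neither of them called with the offset. The endothelial sum was 52.3 to 60.3 CPM in KO and 48.3 to 58.0 in WT, overlapping (exact permutation test, p = 0.5), and no endothelial or lymphocyte marker was called. Sums of lymphocyte markers and of erythroid, megakaryocyte and mast cell markers overlapped as well (exact permutation test, p = 0.2 and 0.4).

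Sfrp5, a secreted Wnt antagonist, rose by 1.88 (SE 0.16, adjusted p = 9.1e-08), the largest rise among genes with a mean of 5 CPM or more that were also called with the offset: it stood at 15.3, 15.8 and 13.8 CPM in KO and 4.11, 3.58 and 4.49 in WT. Of 18 Wnt pathway genes tested, 4 rose and 2 fell (median 0.01), or 33.3% called, next to 16.2% of all genes. Frzb, another secreted antagonist, rose by 1.40 (SE 0.38), from 11, 6 and 5 reads in WT to 17, 13 and 25 in KO, and Nkd1, an intracellular inhibitor, by 0.87 (SE 0.21). The receptor Fzd7 fell by 0.56 on the log2 scale (SE 0.13). With KO 3 alone, Sfrp5 was the only call of that list.

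Among 10 genes of the insulin-like growth factor axis tested, 4 rose and 1 fell, or 50% called, next to 16.2% of all genes. All 4 rises were binding proteins. Igfbp3 stood at 23.5, 28.2 and 28.8 CPM in KO and 13.6, 13.8 and 9.25 in WT (1.14, SE 0.15, adjusted p = 7.3e-05). Igfbp2 rose by 1.79 (SE 0.23), Igfbp6 by 0.83 (SE 0.15) and Igfbp7 by 0.72 (SE 0.14). The fall was Igf1 itself, at 475.9, 361.3 and 373.9 CPM in KO and 503.5, 573.0 and 617.3 in WT (-0.48, SE 0.14, adjusted p = 0.0224). Igf1 is a long transcript, and with the length and GC offset its difference was 0.04 (adjusted p = 0.89), while Igfbp2, Igfbp3 and Igfbp6 were still called.

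Of 16 imprinted growth genes tested, 7 rose and 1 fell, or 50% called, next to 16.2% of all genes. The median was 0.43, or 0.58 with KO 3 alone, and 10 rose with the offset. Cdkn1c, the cell cycle inhibitor p57, stood at 207.4, 237.7 and 211.0 CPM in KO and 115.6, 100.8 and 94.2 in WT (1.08, SE 0.13, adjusted p = 1.4e-05). Mest rose by 1.33 (SE 0.20), Nnat by 1.41 (SE 0.24) and Dlk1, a Notch-like ligand of stromal and progenitor cells, by 1.06 (SE 0.19). These genes are known for high expression in fetal and mesenchymal tissue, and they rose beside the higher fibroblast sum given above, whose part in this was not tested.

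Proliferation genes moved upwards where they moved. Of 38 cell cycle genes tested, 10 rose and none fell, or 26.3% called, next to 16.2% of all genes. The median was 0.19, or 0.30 with KO 3 alone, and 7 rose with the offset. Without KO 3, 10 rose and 1 fell, where 32.4% of all genes were called. Cdc20, an activator of the anaphase-promoting complex, stood at 19.7, 20.2 and 16.8 CPM in KO and 12.5, 11.6 and 9.30 in WT (0.76, SE 0.15, adjusted p = 0.00295). Tk1 rose by 0.68, Ube2c by 0.63 and Birc5 by 0.62. One condensin gene went far the other way. Ncapg2, a subunit of condensin II, which compacts mitotic chromosomes, stood at 11.7, 8.80 and 13.5 CPM in KO and 34.0, 44.2 and 43.7 in WT. The highest KO library was below every WT library by more than 2 times, and the log2 difference was -1.84 (SE 0.16, adjusted p = 9.1e-08; -1.58 with KO 3 alone, adjusted p = 0.00062). Of the other 7 condensin genes tested, Smc2 fell by 0.61 on the log2 scale (adjusted p = 0.0188) and Ncaph2, a partner of Ncapg2 in condensin II, rose by 0.43 (adjusted p = 0.0261); neither was called with the offset.

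Of 30 receptors and bridging molecules for apoptotic cells tested, 1 rose and 4 fell, or 16.7% called, next to 16.2% of all genes. Without KO 3, 3 rose and 13 fell, where 32.4% of all genes were called. With the offset 1 rose and 3 fell. The rise was Mfge8, a secreted protein that links phosphatidylserine on dying cells to integrins on the phagocyte. It stood at 4227, 4324 and 3854 CPM in KO and 1971, 1646 and 1774 in WT (1.202, SE 0.14, adjusted p = 1.2e-05). The libraries did not overlap, KO 3 included, and the difference was 1.03 with the offset and 1.10 with KO 3 alone, called in both. One receptor for that bridge, Itgav, fell by 0.54 on the log2 scale (SE 0.14, adjusted p = 0.016; -0.25 with the offset, not called). The scavenger receptor Marco fell from 11.2, 11.5 and 8.12 CPM in WT to 5.56, 4.57 and 3.76 in KO (-1.15, SE 0.18, adjusted p = 0.000412). Cd36, which binds oxidised lipid, fell from 4871, 6032 and 6501 CPM to 4367, 3731 and 4281 (-0.49, SE 0.15, adjusted p = 0.0265), but was at -0.13 with the offset and not called. Msr1, scavenger receptor A, fell by 0.39 on the log2 scale (adjusted p = 0.0442) and was at 0.06 with the offset.

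Of 35 genes of engulfment and LC3-associated phagocytosis tested, 2 rose and 3 fell, or 14.3% called, next to 16.2% of all genes. The paired subunits of the phagocyte oxidase cytochrome moved apart, with Cyba at 3129, 4622 and 2262 CPM in KO and 2023, 2017 and 1951 in WT (0.74, SE 0.18), and Cybb at 477.0, 484.8 and 583.6 against 686.2, 634.8 and 759.2 (-0.43, SE 0.13). Cyba is a short transcript and Cybb a long one; neither was called with the offset (0.33 and -0.16). Map1lc3a rose by 0.73 and Elmo1, an activator of RAC1 in engulfment, fell by 0.42 on the log2 scale, and neither was called with the offset. Only 1 of the list's genes rose and none fell there.

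Of 38 lysosomal genes tested, 5 rose and 1 fell, or 15.8% called, next to 16.2% of all genes. The median was 0.17, and 0.10 with KO 3 alone, and 3 genes rose with the offset. Without KO 3, 13 rose and 4 fell, where 32.4% of all genes were called. Ctsl, the cysteine protease cathepsin L, stood at 13800, 12540 and 10670 CPM in KO and 7403, 8505 and 8437 in WT (0.60, SE 0.15, adjusted p = 0.0106; 0.83 with the offset, called). Ctsz (0.52), Cst3 (0.55) and the sulfatase gene Galns (0.46) rose as well, and were not called with the offset. Of the lipid-associated macrophage genes, 3 of 16 rose and 2 fell, or 31.2% called, next to 16.2% of all genes. Gpnmb, a transmembrane glycoprotein of lysosomal stress and foam cells, was among the most abundant genes. It stood at 29330, 29440 and 26800 CPM in KO and 22540, 19550 and 20030 in WT (0.46, SE 0.14, adjusted p = 0.0331). Fabp5, a fatty acid carrier, rose by 0.53 (SE 0.15). Genes of the liver X receptor and cholesterol efflux gave 2 rises among 17 (11.8% called). These were Nr1h3 (0.41), which encodes a liver X receptor, and Apoc1 (1.44), scarce at 16, 10 and 9 reads in WT. Sterol and fatty acid synthesis gave 2 rises, Mvd and Mvk, and 1 fall, Idi1, among 24 (12.5% called). Both shares lay below the 16.2% of all genes, and Nr1h3, Mvd and Mvk were not called with the offset.

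A pair of osteoclast markers rose strongly. Acp5, tartrate-resistant acid phosphatase, stood at 321.6, 277.1 and 238.1 CPM in KO and 138.4, 137.3 and 136.7 in WT (1.02, SE 0.13, adjusted p = 3.7e-05). Ctsk, cathepsin K, stood at 645.1, 481.1 and 549.7 CPM against 316.1, 299.0 and 291.2 (0.89, SE 0.13, adjusted p = 0.00023). Both were called in all 14 alternatives. The other 7 osteoclast markers tested were not called, and the sum of the list overlapped between groups at 1831 to 2178 CPM and 1476 to 1860 (exact permutation test, p = 0.2).

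Receptors of chemoattractants and vasoactive agents fell in more members than they rose. Of 41 G protein-coupled receptors tested, 13 fell and 1 rose, or 34.1% called, next to 16.2% of all genes. The median was -0.27, or -0.18 with KO 3 alone. With the offset 10 fell and 2 rose, where 6.94% of all genes were called. Fpr1, the formyl peptide receptor that guides phagocytes to bacterial and mitochondrial peptides, stood at 2.46, 1.74 and 2.56 CPM in KO and 9.66, 8.74 and 7.75 in WT (-1.95, SE 0.19, adjusted p = 7.8e-07). Ednrb, an endothelin receptor, fell from 16.6, 17.5 and 14.9 CPM in WT to 7.14, 5.04 and 8.21 in KO (-1.26, SE 0.17). Calcrl, the receptor of calcitonin gene-related peptide and adrenomedullin, fell by 1.22 on the log2 scale (SE 0.18), and P2ry10b, a receptor gene outside the list, by 1.13 (SE 0.18). The lone rise was Htr2b, a serotonin receptor, at 16.3, 12.6 and 16.3 CPM in KO and 5.96, 5.32 and 7.54 in WT (1.26, SE 0.17, adjusted p = 5.5e-05).

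Genes of alternative activation fell in 6 of 14 tested and rose in none, where 8.24% of all genes fell. With the offset 7 fell and 1 rose. The median was -0.26, but it was 0.04 without KO 3, where 6 still fell, and -0.53 with KO 3 alone. The list summed to 1904, 1749 and 1769 CPM in KO and 1655, 1729 and 1904 in WT, so the sums overlapped. Arg1, arginase 1, stood at 65.0, 63.4 and 48.7 CPM in KO and 119.3, 118.1 and 104.5 in WT (-0.95, SE 0.13, adjusted p = 7.7e-05). F13a1, the transglutaminase subunit of factor XIII made by resident macrophages and monocytes, stood at 7.43, 7.29 and 8.05 CPM against 20.2, 21.4 and 23.9 (-1.52, SE 0.14, adjusted p = 6.2e-07). The libraries of the groups lay far apart for both, with KO 3 the lowest for Arg1 and the highest of the KO libraries for F13a1. Mrc1, the mannose receptor CD206, fell by 0.61 on the log2 scale (SE 0.13) and Hpgd, which inactivates prostaglandins, by 1.38 (SE 0.27). Outside the list, Serpinb2, an inhibitor of plasminogen activators, fell by 1.30 (SE 0.18), Ms4a4a by 1.66 (SE 0.23) and Gdf3, a TGF-beta family ligand, by 0.99 (SE 0.13), all on the log2 scale. Cd5l, a secreted macrophage protein, stood at 145.4, 171.8 and 119.2 CPM in KO and 240.0, 252.5 and 244.3 in WT (-0.76, adjusted p = 0.0013), and Cd38, an NAD-consuming enzyme, fell by 0.95; both were named from the 67 genes after their values were seen. The monocyte markers summed to 47.0 to 50.8 CPM in KO and 68.0 to 78.2 in WT (exact permutation test, p = 0.1). Of 8 tested 3 fell, F13a1, Vcan and Ccr2, and 1 rose, Plac8, or 50% called, next to 16.2% of all genes.

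Of 28 NF-kB targets and cytokines tested, 1 rose and 3 fell, or 14.3% called, next to 16.2% of all genes. Without KO 3 none rose and 8 fell, where 32.4% of all genes were called. With the offset 1 rose and 5 fell, where 6.94% of all genes were called. Tnf stood at 9.71, 8.97 and 7.95 CPM in KO and 12.1, 12.6 and 12.4 in WT (-0.48, SE 0.15, adjusted p = 0.0315), and Cxcl2, a neutrophil chemokine, at 11, 21 and 18 reads against 45, 58 and 32 (-1.33, SE 0.29, adjusted p = 0.00646). Among 18 immediate early genes, 4 fell and none rose, or 22.2% called, next to 16.2% of all genes. The falls were Fos (-0.45), Egr2 (-0.42), Zfp36 (-0.47) and Klf6 (-0.36), of which the first 3 were called with the offset too. None of the 4 was called without KO 1 (adjusted p = 0.0651, 0.0685, 0.0664 and 0.134). Without KO 3 the immediate early list gave 1 rise and 5 falls, where 32.4% of all genes were called. Of 30 interferon-stimulated genes only Oasl1 was called (3.33%), higher by 0.77 (SE 0.14). Without KO 3 that list gave 5 rises and 4 falls, where 32.4% of all genes were called. Of 8 genes of MHC class II presentation H2-DMa was called (12.5%), higher by 0.45 with overlapping libraries. Of 18 antioxidant targets of NRF2 tested, 1 rose and 2 fell (median 0.02), or 16.7% called, next to 16.2% of all genes. The genes of both subunits of glutamate-cysteine ligase, which starts glutathione synthesis, fell. Gclm fell by 0.64 (SE 0.12) and Gclc by 0.55 (SE 0.13) on the log2 scale, and both were called with the offset.

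Mitochondrial genes moved in opposite directions by the genome that encodes them. Of 13 genes of the mitochondrial genome tested, 7 fell and none rose, or 53.8% called, next to 16.2% of all genes. The median was -1.13. With the offset 6 fell and the median was -0.83, and without KO 3, 2 fell, where 32.4% of all genes were called. mt-Nd5, a complex I subunit, stood at 359.7, 227.1 and 398.6 CPM in KO and 584.6, 930.7 and 1449 in WT (-1.59, SE 0.37, adjusted p = 0.0338). The WT libraries differed among themselves by more than 2 times, and KO 2 was the lowest of all. Of 74 nuclear genes for respiratory chain subunits, 32 rose and none fell (median 0.38), or 43.2% called, next to 16.2% of all genes. Cox4i1, a subunit of cytochrome c oxidase, stood at 652.1, 767.0 and 442.0 CPM in KO and 387.9, 393.6 and 396.5 in WT (0.66, SE 0.15, adjusted p = 0.00967). The rise was carried by KO 1 and KO 2: the list's median deviation from the WT mean was 0.505 in KO 1, 0.481 in KO 2 and -0.00486 in KO 3. Most of these transcripts are short, and with the offset 7 rose. With KO 3 alone none of the 74 was called, and their median was -0.01. The mitochondrially encoded genes had median deviations from the WT mean of -0.622, -1.84 and -0.823 in KO 1, 2 and 3. Those of WT 1, 2 and 3 were -0.461, 0.0865 and 0.365, so KO 1 lay only a little below WT 1.

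Motor and microtubule genes were examined because KIF13B is a kinesin. Of 22 transport kinesins and light chains tested, 1 rose and 3 fell, or 18.2% called, next to 16.2% of all genes. Kif5b, the ubiquitous conventional kinesin heavy chain, fell by 0.66 on the log2 scale (SE 0.14, adjusted p = 0.00613), Kif1b by 0.54 and Kif3a by 0.43, and the light chain Klc4 rose by 0.44; of these Kif1b and Kif3a were called with the offset. Tubulins rose in 6 of 11 and fell in none, or 54.5% called, next to 16.2% of all genes. Their median was 0.37, or 0.21 with KO 3 alone, and 2 rose with the offset. Tubb2b stood at 11.0, 11.2 and 11.6 CPM in KO and 6.78, 5.10 and 4.65 in WT (1.03, SE 0.16, adjusted p = 0.000516), and Tuba1a at 113.0, 99.2 and 88.8 against 65.1, 66.0 and 62.6 (0.64, SE 0.12, adjusted p = 0.00275). The libraries did not overlap for either gene.

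**Figure D4:**
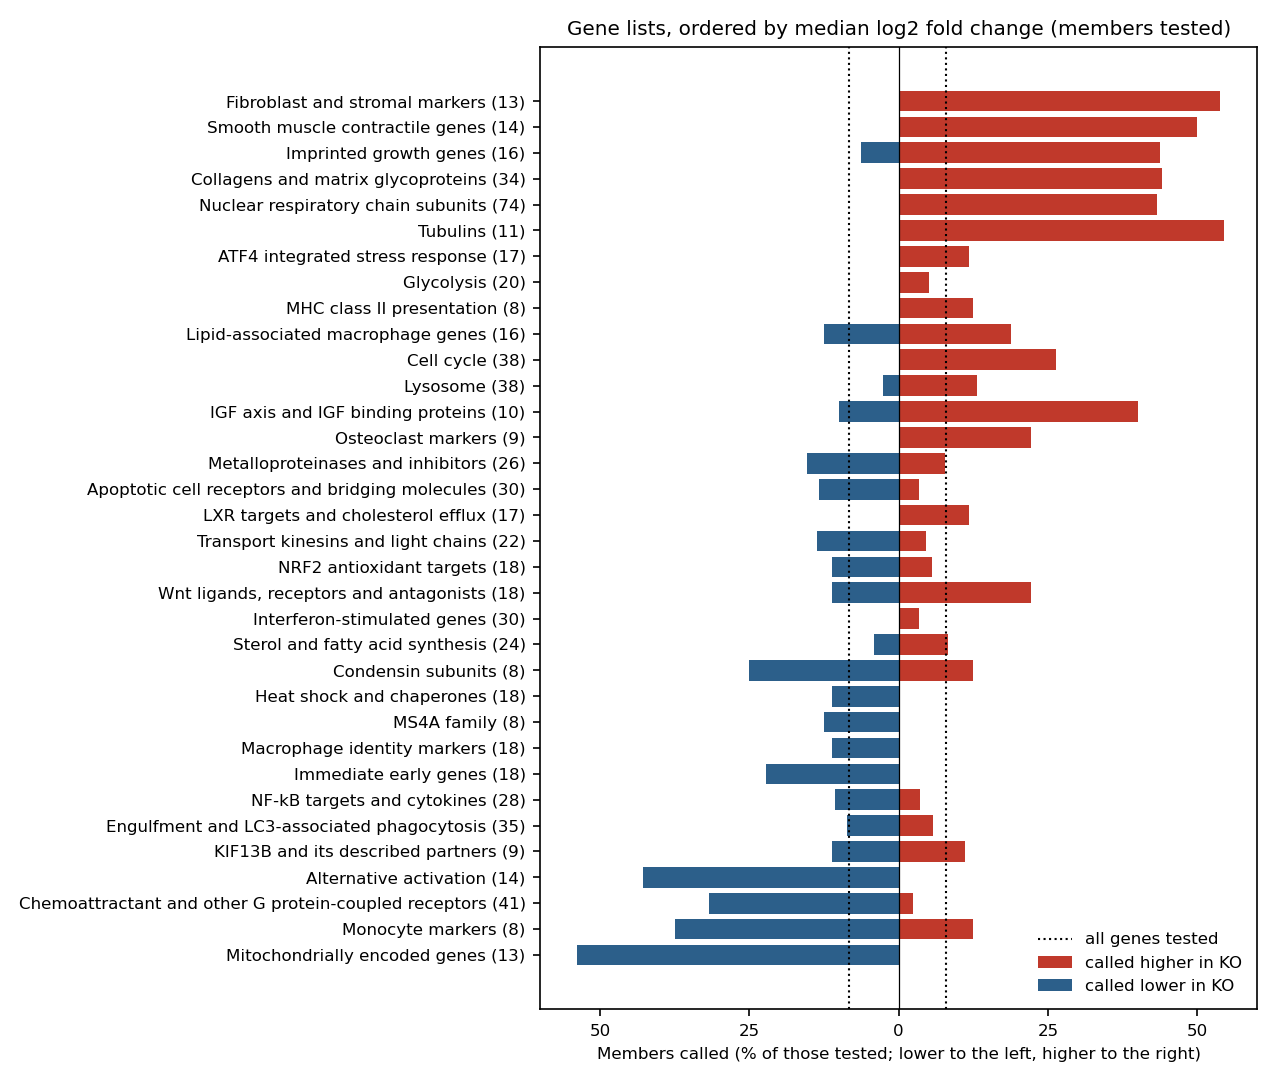
Bars show, for each gene list with 8 or more members tested, the percent of tested members called higher in KO (right) and lower (left), ordered by median log2 fold change, with dotted lines at the 7.94% and 8.24% of all genes tested. Fibroblast, smooth muscle, matrix, imprinted, tubulin and nuclear respiratory lists lie far to the right, and mitochondrially encoded genes, monocyte markers, G protein-coupled receptors and alternative activation genes to the left.

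The difference between genotypes in resting cells was set beside that in the 6 libraries with apoptotic cells, which share no library with it but were counted in another table. Of the 2045 genes called in resting cells, 1976 were tested with apoptotic cells and 382 were called there too, or 18.7% of the resting calls and 20.5% of the 1866 calls with apoptotic cells (11.3% of genes tested). Among these 382, 73 had the same direction and 309, or 80.9%, the opposite: 119 higher and 190 lower in resting KO. These directions rest on the labels. Kif13b itself is 1 of the 309, being higher in the libraries labelled KO and given apoptotic cells. Among the 73 are Mid1, at 1.24 in resting cells and 1.40 with apoptotic cells, and Asap2, at -1.84 and -0.76. Were the labels of that table the other way round, 309 would share a direction and 73 would not. Whether the labels are right was not tested. The share of opposite direction was between 71.9 and 82.4% when each resting library was left out in turn. It was 78.4% with the length and GC offset applied to both comparisons. Fpr1 is 1 of the 309. With apoptotic cells it stood at 94.7 ± 10.3 CPM in the libraries labelled KO and 51.0 ± 1.85 in those labelled WT (SD, n = 3 each), a difference of 0.89 (SE 0.06, adjusted p = 1.3e-08) where resting cells had -1.95. Acta2 stood at 18.2 ± 1.37 and 17.6 ± 0.716 CPM with apoptotic cells, a difference of 0.04 (SE 0.08, adjusted p = 0.814). Ncapg2 kept its direction, at 23.3 ± 3.28 and 33.0 ± 1.38 CPM (-0.50, SE 0.07, adjusted p = 1.4e-06). In a joint fit of all 12 libraries, 2132 of 16810 genes (12.7%) were called for the interaction of genotype and apoptotic cells. Table and treatment coincide there, so the effect of apoptotic cells and that of separate sequencing cannot be told apart.

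**Figure D5:**
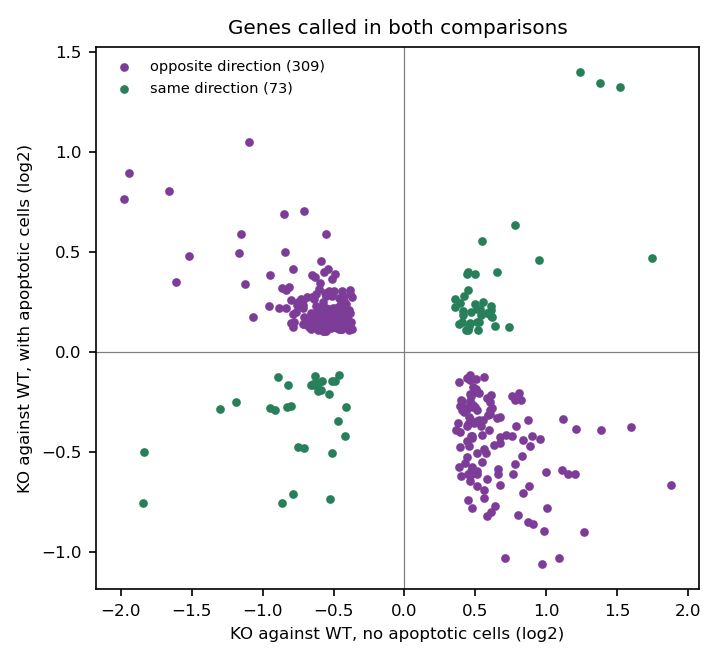
Each point is 1 of the 382 genes called in both comparisons, with the log2 difference between KO and WT without apoptotic cells on the horizontal axis and with them on the vertical axis. The 309 genes of opposite direction lie in the upper left and lower right, and the 73 of the same direction in the other quadrants.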

How the data were processed

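Poly(A) RNA of 6 libraries (3 WT, 3 KO) was sequenced as paired 150-base reads, per the labels. The deposited values are raw counts per gene symbol, made by the authors with fastp and HISAT2 2.0.5 on mm10, per the submitters' processing notes, which also name DESeq2 1.20.0; no source used here names the counting tool, the annotation or the strand setting. Of 54957 symbols, 12640 passed edgeR's filterByExpr and were tested with edgeR 4.0.16 (TMM, robust quasi-likelihood, two-sided, R 4.3.3), only KO and WT libraries in the fit. Lengths, GC content and positions came from GENCODE vM21 (12530 tested genes matched) and promoters from RefSeq.

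The members and the 40 gene lists were chosen with earlier results of these data known; lists are described by counts and medians, with no test of a list. By rule, Kif13b and Mertk were named, and the 12 largest rises and falls. The rises and falls had a mean of at least 5 CPM, groups not overlapping, and a call with the length and GC offset. Predicted genes, pseudogenes, ribosomal protein genes, mitochondrially encoded genes and receptor segments were left out. With the same exclusions, the 8 most abundant calls each way with groups not overlapping were named. Up to 4 called members of each list were named by smallest p. Other genes in the text, such as Tpm1, Des, Csrp1, Col4a1, Tnc, Pdgfra and Dcn, lie outside these rules and were named with their values known. Of 843 list entries 719 genes were tested. Alternatives were DESeq2 1.42.0, other scalings, no filter, the length and GC offset, a replicate block, a 2-fold threshold and left-out libraries. On simulated counts at these depths over 12666 genes, the test of KO against WT recovered 99% of 2-fold and 60% of 1.5-fold changes. The simulation gave every gene the same dispersion, changed only genes above a minimum level, and held no length trend or outlying library. Recovery in the real libraries, which have both, was not tested.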

Additional observations from a re-analysis of the deposited data

Results flagged for a closer look

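For 11 genes the difference between KO and WT was not the same with and without apoptotic cells, by the interaction term of edgeR's quasi-likelihood test over all 12 libraries (adjusted over 16810 genes). The genes other than Kif13b were taken as the 5 largest resting rises and the 5 largest falls by the naming rule, which leaves out predicted and mitochondrially encoded genes, a choice that by itself favours a smaller difference elsewhere, and table and treatment coincide. The change in the KO effect on the log2 scale, with apoptotic cells minus without, was 0.74 for Kif13b (SE 0.13, adjusted p = 0.000815), whose resting fall of 0.59 met a rise of 0.13. Of the resting rises, Sfrp5 changed by -2.52 (adjusted p = 4.0e-07) and Htr2b by -2.14 (adjusted p = 2.8e-07), and both were lower in KO with apoptotic cells, at -0.67 and -0.90. Acta2 changed by -1.61, Myl9 by -1.65 and Tmem178 by -0.88 (adjusted p = 3.4e-07, 0.000178 and 0.0101), and none of these was called with apoptotic cells. Of the resting falls, Fpr1 changed by 2.87, Ms4a4a by 2.49 and F13a1 by 2.02 (adjusted p = 9.8e-11, 5.6e-05 and 2.8e-09), and all were higher in KO with apoptotic cells, at 0.89, 0.80 and 0.48. Ncapg2 changed by 1.36 and Serpinb2 by 1.04 (adjusted p = 2.3e-05 and 0.00035), and both stayed lower in KO, at -0.50 and -0.29. For Mertk the term was 0.01 (SE 0.16, adjusted p = 1.00).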

How the results depend on the processing

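Counts of called genes depended on libraries and on gene length more than on the tool. Leaving out 1 library gave 312 to 4166 calls (181 to 1866 higher, 131 to 2300 lower), and KO 3 as the only KO library 95 (69 higher, 26 lower), 91 of them shared with the 2045. DESeq2 called 1973 and upper-quartile scaling 2153, with 57.5% of calls higher next to 49.1%. The length and GC offset called 877 (523 higher, 354 lower; 59.6% higher) and a 2-fold threshold 160 (106 higher, 54 lower). Deviations of same-numbered KO and WT libraries correlated at -0.204, -0.00143 and 0.112, and only KO 3 correlated best with its own number. With 3 libraries per group these values cannot settle whether the replicate numbers pair the libraries. With the replicate block 2496 genes were called, and 1239 with the block and the offset together (496 lower); Kif13b was -0.60 in the block (adjusted p = 0.000799) and 2174 interactions were called. Kif13b ranged from -0.73 to -0.48 over left-out libraries, was not called without KO 1, was -0.41 with KO 3 alone and, at -0.59, did not reach 2-fold. Left-out libraries gave 1129 to 4330 interaction calls. Signs turned for Mertk (-0.0080 with no filter, and -0.05, -0.097 and -0.073 without KO 2, KO 3 and WT 1, with a range of -0.097 to 0.166 over left-out libraries), for Igf1 (0.035 with the offset, 0.013 with block and offset), for Nptn (0.0032 with the offset) and for Eng (-0.077 with the offset, -0.080 with block and offset). The Mertk interaction turned to -0.0057 with DESeq2, -0.006 with its size factors in edgeR and -0.0137 with no filter, and ranged from -0.161 to 0.0908 over left-out libraries. The cause was not tested. Genes of opposite direction in both tables numbered 77 without KO 1, 160 without KO 2, 504 without KO 3, 294, 169 and 79 without WT 1, 2 and 3, 35 with KO 3 alone and 185 with the offset, settings added after the data had been seen. Of 135 named genes, 40 gave the same call with KO 3 alone and 88 with the offset.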
